A study of Mus musculus with 9 samples.

Results

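The genes described are 7 replication-dependent histone genes of the mouse, 5 that encode histone H2A (Hist1h2ad, Hist1h2ae, Hist1h2ah, Hist1h2ap and Hist2h2ac) and 2 that encode histone H2B (Hist1h2bl and Hist2h2bb). They were taken by name from the deposited table of P-Por-Os against control, where all 7 occur among 160 genes, and the tables of the series hold 217 distinct genes. RNA was measured in Hepa1-6 cells, a mouse hepatocarcinoma line of wild-type genotype per the labels, in 9 libraries that form 3 groups of 3. Control cells are labelled as untreated, while the series text names PBS. Treated cells received the material P-Por-Os at 25.57 µg/mL, either alone or, at that same dose, together with ultrasound (P-Por-Os+US). No exposure time is named, and whether replicates were grown as separate cultures is not stated, so each SD below is a spread between libraries that may be technical. That table holds selected genes that were higher after P-Por-Os, and in it the lowest log2 fold of the authors is 1.00 and the highest unadjusted p-value 0.0334. The genes were therefore chosen by the same difference that is described here, so their levels and ratios are given as a description, without a test. None of 8 hepatocyte and hepatoma markers, such as Alb and Afp, was among the listed genes, so the tables hold no level that bears on the labelled cell type. Of the markers of other cell types, Cd14 of 4 myeloid genes and Krt16 of 3 keratinocyte genes were in this table, and none of 3 fibroblast genes was.

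H2A and H2B pair into dimers, and 2 such dimers join a core of H3 and H4 to form the protein spool of the nucleosome around which DNA is wound. Replication-dependent copies are encoded by clustered, intronless genes, and their mRNA accumulates in S phase, when new DNA must be packaged. In place of a poly(A) tail these mRNAs end in a short stem-loop, which the stem-loop binding protein SLBP recognises. Bulk RNA cannot tell a larger share of cells in S phase from more histone mRNA per cell. The labels' protocols name both a kit for mRNA libraries and a kit that removes ribosomal RNA, and do not say which libraries used which. How the kits bear on the levels of these tailless mRNAs was not tested.

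Each of the 7 genes has 1 exon in GENCODE M21 (GRCm38). On chromosome 13, in the Hist1 cluster, lie Hist1h2bl (21715763 to 21716143, minus strand), Hist1h2ap (21833026 to 21833507, minus strand), Hist1h2ah (22035164 to 22035568, minus strand), Hist1h2ae (23570517 to 23571220, minus strand) and Hist1h2ad (23574381 to 23574952, plus strand). On chromosome 3, in the Hist2 cluster, lie Hist2h2ac (96220361 to 96220880, minus strand) and Hist2h2bb (96269752 to 96270132, plus strand). The annotated transcripts of Hist1h2bl and Hist2h2bb are coding sequence alone, at 381 bases each, and that of Hist1h2ah reaches 2 bases past its stop codon. The other 4 H2A transcripts run on for 57 to 199 bases, and all 4 hold a perfect 6-base stem around a 4-base loop there. The stem-loops are shown because they are the 3′ end feature that sets these mRNAs apart, with the 16 bases of stem and loop in capitals, read from the GENCODE transcripts.
Hist1h2ad: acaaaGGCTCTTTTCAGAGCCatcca
Hist1h2ae: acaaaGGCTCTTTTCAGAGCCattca
Hist1h2ap: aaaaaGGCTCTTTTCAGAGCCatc
Hist2h2ac: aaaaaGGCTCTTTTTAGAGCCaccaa
The stem-loop starts 32, 33, 39 and 22 bases after the stop codon in these 4 genes, in the order shown. The 3 Hist1 copies have the same 16 bases, and the Hist2 copy differs from them in the last base of the loop. With that base left free (GGCTCTTTTNAGAGCC), the letters occur in transcripts of 35 of 21877 protein-coding genes (0.16 percent), of which 33 are Hist-cluster genes, on the transcript strand only.

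The stretches before the start sites of 5 of the 7 genes are shown because the genes are listed together, and they let these promoters be compared. RefSeq start sites on GRCm38.p6 were matched for all 7 genes, under the current symbols H2ac7, H2ac8, H2ac12, H2ac24, H2ac20, H2bc13 and H2bc18 in the order of the names in the opening sentence. Of 2 loci that share the older name Hist1h2ap, the one that overlaps the GENCODE gene was used. Capitals mark CCAAT (a box bound by NF-Y), TATAA (the core of a box bound by the general factor TBP) and ATTTGCAT (an octamer bound by OCT1, known from H2B promoters) on either strand, and the marked letters do not overlap one another. The printed stretch ends 50 bases after the annotated start and begins 200 bases before it, or at the start of the divergent neighbour where that is nearer. Hist1h2ad and Hist1h2ap are not printed. Their windows of 300 bases hold 4 and 3 CCAAT matches, 1 TATAA match each and no octamer.
Hist1h2ae (chr13:23571171-23571395, minus strand): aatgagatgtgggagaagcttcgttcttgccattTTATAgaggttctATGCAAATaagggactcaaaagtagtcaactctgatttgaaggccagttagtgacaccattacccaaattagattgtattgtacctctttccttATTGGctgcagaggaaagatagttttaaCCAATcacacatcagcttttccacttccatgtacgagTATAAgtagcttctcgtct
Hist1h2ah (chr13:22035594-22035843, minus strand): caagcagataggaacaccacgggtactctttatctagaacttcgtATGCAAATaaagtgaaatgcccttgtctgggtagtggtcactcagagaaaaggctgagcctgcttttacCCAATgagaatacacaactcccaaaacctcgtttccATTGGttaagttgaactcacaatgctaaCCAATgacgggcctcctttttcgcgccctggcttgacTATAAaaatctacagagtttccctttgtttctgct
Hist2h2ac (chr3:96220831-96221080, minus strand): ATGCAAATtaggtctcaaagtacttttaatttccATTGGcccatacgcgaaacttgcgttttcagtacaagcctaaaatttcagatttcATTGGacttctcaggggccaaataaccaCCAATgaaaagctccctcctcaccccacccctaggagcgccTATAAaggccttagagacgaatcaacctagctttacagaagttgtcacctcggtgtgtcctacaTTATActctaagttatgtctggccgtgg
Hist1h2bl (chr13:21716134-21716383, minus strand): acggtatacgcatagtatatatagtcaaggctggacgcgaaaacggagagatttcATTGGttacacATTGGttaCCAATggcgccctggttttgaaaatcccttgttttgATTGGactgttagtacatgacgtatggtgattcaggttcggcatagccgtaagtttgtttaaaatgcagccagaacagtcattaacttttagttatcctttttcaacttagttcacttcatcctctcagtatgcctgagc
Hist2h2bb (chr3:96269500-96269749, plus strand): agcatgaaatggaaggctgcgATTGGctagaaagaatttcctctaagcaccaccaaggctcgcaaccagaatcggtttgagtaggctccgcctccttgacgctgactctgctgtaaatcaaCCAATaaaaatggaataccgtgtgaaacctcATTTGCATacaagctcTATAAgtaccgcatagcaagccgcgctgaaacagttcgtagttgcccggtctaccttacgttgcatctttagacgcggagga
In the full windows of 300 bases, 250 before and 50 after the start, all 7 genes hold at least 2 CCAAT matches and 5 hold at least 3, against 11.7 and 3.37 percent of 32851 RefSeq promoter windows. TATAA occurs in 6 of 7, all but Hist1h2bl, against 24.9 percent of windows. On the gene's own strand it lies 16 to 32 bases downstream of the annotated start in Hist1h2ad, Hist1h2ae and Hist1h2ah. The octamer occurs in Hist1h2ae, Hist1h2ah, Hist2h2ac and Hist2h2bb, 4 of 7, against 1.74 percent of windows. In Hist2h2bb it points toward the gene, 48 bases before the start, and in the 3 H2A genes it lies on the opposite strand, 128 to 200 bases before the start. Those 3 H2A genes each stand head to head with an H2B gene, and 6 of the 7 genes have such a divergent H2A or H2B partner. The 2 starts lie 176 to 302 bases apart by the GENCODE gene bounds, which for some genes differ from the RefSeq starts used above. Only 1 of the 6 partners was listed, Hist1h2bg beside Hist1h2ae. The partners Hist1h2bf, Hist1h2bk, Hist1h2br, Hist2h2be and Hist1h2ai were not listed, which does not show that they were unchanged. These matches are letters in a window and were not tested as binding sites.

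The H2A and H2B mRNAs were higher in all 3 P-Por-Os libraries than in any control library for each of the 7 genes. Mean levels were 2.40 to 3.25 times those of control, a log2 ratio of 1.26 to 1.70 with a median of 1.45, beside a median of 1.35 over all 160 listed genes. The 8 listed genes for histones H1, H3 and H4 had a median of 1.39. All 7 were listed by the authors, and the listing holds 1.05 percent of the 15270 genes tested, a share from which nothing is read since the genes were picked from it. The groups did not overlap for 7 of 7, as for 99.4 percent of all listed genes. Values below are RPKM, which divides reads by gene length and by library total, in control and P-Por-Os replicates 1, 2 and 3, and means are given with SD over 3 libraries.

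Among the H2A genes, Hist1h2ah gave the highest level, at 236, 448 and 481 RPKM in control and 1188, 1199.7 and 1246 RPKM after P-Por-Os. Its mean was 388 ± 133 RPKM (SD, n = 3) in control and 1212 ± 30.7 RPKM (SD, n = 3) after P-Por-Os, a log2 ratio of 1.64. The control libraries were spread over a range of more than the lowest value, while the P-Por-Os libraries lay close together.

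Hist2h2ac, the H2A gene of the Hist2 cluster, was at 269, 366 and 398 RPKM in control and at 949.9, 1008 and 925 RPKM after P-Por-Os. Its means of 344 ± 67.2 and 961 ± 42.6 RPKM (SD, n = 3 each) gave a log2 ratio of 1.48. Within a library the ratio of Hist1h2ah to Hist2h2ac was 0.876, 1.23 and 1.21 in control and 1.25, 1.19 and 1.35 after P-Por-Os. The groups overlapped in this ratio, and only in control replicate 1 was Hist1h2ah the lower gene. The levels of both genes are per length on the authors' scale.

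Hist1h2ap was at 110.4, 206 and 199 RPKM in control and at 418, 435 and 431 RPKM after P-Por-Os. Hist1h2ad was at 128, 172 and 190.2 RPKM in control and at 379, 445 and 365 RPKM after P-Por-Os. These 2 H2A copies overlapped each other in level in both groups, at means of 172 ± 53.2 and 164 ± 31.8 RPKM in control and of 428 ± 8.99 and 396 ± 42.4 RPKM after P-Por-Os (SD, n = 3 each). Their log2 ratios were 1.32 for Hist1h2ap and 1.28 for Hist1h2ad.

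Hist1h2ae, the H2A copy that lies about 3 kb from Hist1h2ad, had the lowest level and the highest ratio. It was at 39.9, 64.2 and 70.8 RPKM in control and at 179.6, 205 and 183 RPKM after P-Por-Os. The means of 58.3 ± 16.3 and 189 ± 13.8 RPKM (SD, n = 3 each) gave a log2 ratio of 1.70. The ratio of Hist1h2ae to Hist1h2ad was 0.31 to 0.373 in the control libraries and 0.461 to 0.501 in the P-Por-Os libraries, without overlap between the groups. This pair sets the highest log2 ratio against the 1.28 of Hist1h2ad, so a rise follows from the choice of pair.

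Of the H2B genes, Hist2h2bb was the most abundant of the 7 and of all 160 listed genes. It was at 932, 1179 and 1299 RPKM in control and at 2659.6, 2919.5 and 2599.8 RPKM after P-Por-Os, with means of 1137 ± 187 and 2726 ± 170.0 RPKM (SD, n = 3 each) and a log2 ratio of 1.26. Its share of the summed RPKM of the 7 genes was 46.7 to 52.5 percent in control and 43.6 to 45.3 percent after P-Por-Os. The sum of the 5 H2A genes over that of both H2B genes was 0.791, 0.989 and 0.961 in control and 1.08, 1.04 and 1.12 after P-Por-Os. These ratios depend on which genes are summed. Over all 13 listed H2A and H2B genes the ratio was 1.01, 1.16 and 1.15 in control and 1.25, 1.22 and 1.29 after P-Por-Os. With either set of genes the P-Por-Os libraries lay above the control libraries. The larger set holds the 7 genes, and Hist2h2bb, with the lowest log2 ratio of the 7, makes up most of both H2B sums. A higher ratio after P-Por-Os thus depends largely on that gene, and the sets are not separate results.

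Hist1h2bl, the other H2B gene, was at 58.5, 91.4 and 93.9 RPKM in control and at 222, 232 and 214 RPKM after P-Por-Os. Its means were 81.3 ± 19.8 and 223 ± 8.96 RPKM (SD, n = 3 each), a log2 ratio of 1.45. It stood next above Hist1h2ae in level in every library. The ratio of Hist1h2bl to Hist1h2ae within a library was 1.47, 1.42 and 1.33 in control and 1.24, 1.13 and 1.17 after P-Por-Os. The 7 control means spanned 19.5-fold and the 7 P-Por-Os means 14.4-fold.

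**Figure D1:**
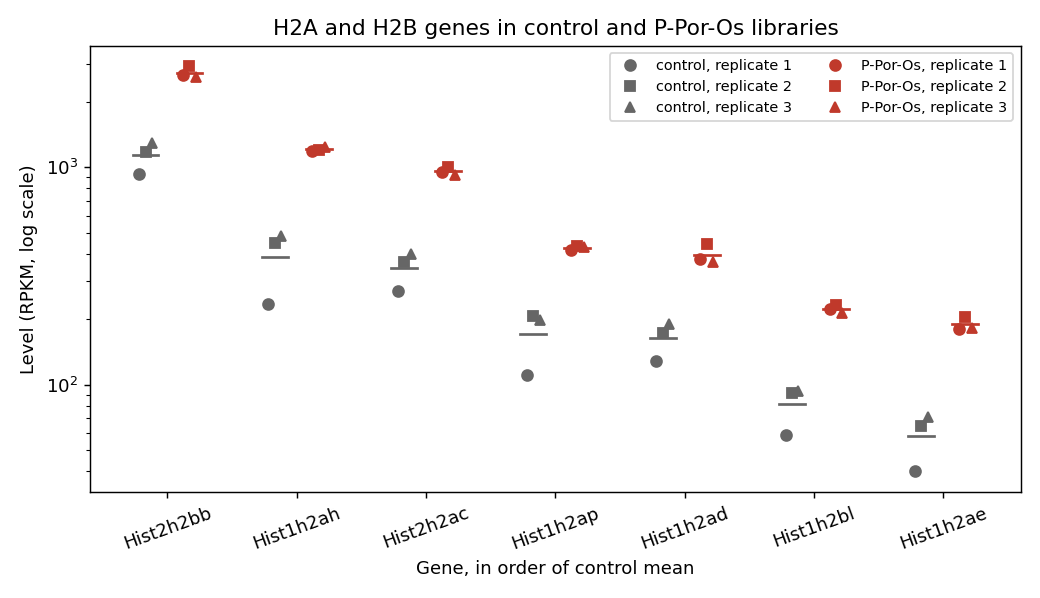
RPKM of each gene on a log axis, with control libraries in grey and P-Por-Os libraries in red, symbols for replicates 1 to 3 and a line at each mean of 3 libraries. Every P-Por-Os point lies above every control point of its gene, and control replicate 1 is the lowest control point for all 7 genes.

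Control replicate 1 stood apart for these genes. It was the lowest control library for 7 of 7, and for 110 of the 160 listed genes. On the log2 scale it lay below the mean of the other control libraries by amounts from -0.41 for Hist2h2bb to -0.98 for Hist1h2ah, with a median of -0.66, against a median of -0.35 over all listed genes. Within the control group the coefficient of variation (SD over mean) had a median of 24.3 percent over the 7 genes, and within the P-Por-Os group 4.43 percent. For all listed genes those medians were 20.3 and 9.07 percent. For the 8 listed H1, H3 and H4 genes it was the lowest control in 8 of 8, by a median of -0.61.

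Without control replicate 1 the log2 ratios of the 7 genes ran from 1.08 for Hist1h2ap to 1.49 for Hist1h2ae, with a median of 1.27, beside 1.28 for all listed genes. The authors' deposited log2 folds lay 0.0998 to 0.114 below the log2 ratios of mean RPKM for these genes, from 1.15 for Hist2h2bb to 1.59 for Hist1h2ae in the authors' deposited table. The unadjusted p-values in the authors' deposited table ran from 3e-07 for Hist2h2bb to 0.0043 for Hist1h2ap. The median offset over all listed genes was 0.119. With this offset taken off and without that library, a setting chosen after the values were seen, Hist1h2ap was at 0.96, under 1, with Hist1h2ad at 1.01 and Hist2h2bb at 1.02. The 4 others lay between 1.15 and 1.37.

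**Figure D2:**
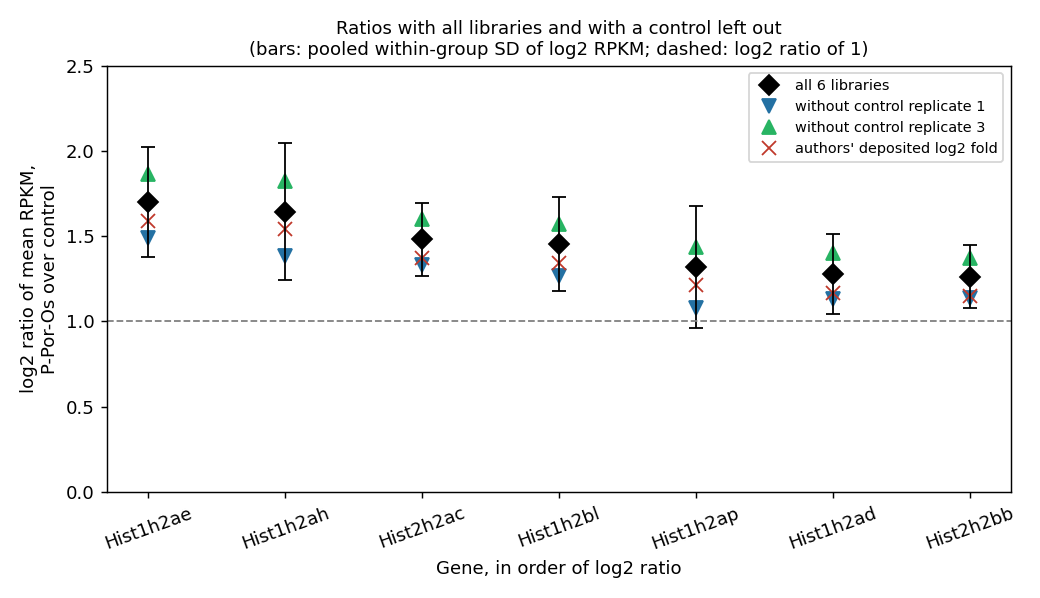
The log2 ratio of mean RPKM, P-Por-Os over control, for each gene with all 6 libraries (diamonds, bars of 1 pooled within-group SD), without control replicate 1, without control replicate 3, and as the authors' deposited log2 fold. Ratios are lower without replicate 1 and higher without replicate 3 for each gene. All lie above 1, which the selection of listed genes fixes for the authors' folds.

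Counting error was small beside the spread between control libraries. The library totals behind the RPKM values lay between 35152000 and 37668000 reads, found from the whole-read steps of low values. For the 5 genes whose annotated length matched the deposited values, the reads per library ran from 840 for Hist1h2bl in control replicate 1 to 39934 for Hist2h2bb in P-Por-Os replicate 2. At 840 reads the counting error is 3.45 percent, against a control coefficient of variation of 24.3 percent for Hist1h2bl. For Hist1h2ad and Hist1h2ae the GENCODE M21 lengths of 572 and 704 bases did not match the deposited values, so no read numbers are given.

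Part of each signal could not be assigned to 1 gene. The coding sequences of the 5 H2A genes were 91.0 to 99.2 percent identical in pairs, and those of the H2B genes 88.7 percent. The first 60 coding bases of the H2A genes show how close the copies are, with capitals where a base differs from Hist1h2ah.
Hist1h2ah: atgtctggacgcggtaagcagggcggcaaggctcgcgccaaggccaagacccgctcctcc
Hist1h2ap: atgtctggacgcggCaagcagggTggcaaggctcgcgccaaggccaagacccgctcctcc
Hist1h2ad: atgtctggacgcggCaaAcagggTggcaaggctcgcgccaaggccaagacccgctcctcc
Hist1h2ae: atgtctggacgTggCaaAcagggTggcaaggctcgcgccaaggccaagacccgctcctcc
Hist2h2ac: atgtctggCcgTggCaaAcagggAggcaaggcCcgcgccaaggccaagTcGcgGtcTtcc
Hist1h2ap differs at 2 of these bases, Hist1h2ad at 3, Hist1h2ae at 4 and Hist2h2ac at 10. Of all stretches of 31 bases in each transcript, the share found in transcripts of other genes, overlapping models aside, was 93.4 percent for Hist1h2ap, 91.2 percent for Hist1h2ah, 88.6 percent for Hist1h2bl, 68.3 percent for Hist1h2ad, 52.7 percent for Hist2h2ac, 47.9 percent for Hist1h2ae and 7.98 percent for Hist2h2bb. The nearest copy of Hist1h2ap, Hist1h2ao, holds all of its shared stretches and was not listed. The nearest copies of Hist1h2bl and Hist2h2bb (Hist1h2br for both) and of Hist2h2ac (Hist2h2aa2) were not listed either. Those of Hist1h2ad, Hist1h2ae and Hist1h2ah were listed. How this bears on the levels of single copies was not tested. The split of reads among these copies is uncertain for the genes other than Hist2h2bb, and how the counting treated reads with several matches is not given in the sources used here.

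The same loci were also counted under other names. All 5 H2A genes contain a short microRNA-type gene model of 138 to 144 bases on the opposite strand (Gm44359 in Hist1h2ad, Gm44394 in Hist1h2ae, Gm44390 in Hist1h2ah, Gm44466 in Hist1h2ap and Gm44492 in Hist2h2ac). Hist2h2bb is overlapped by the antisense model Gm20628 and by the same-strand lincRNA model Gm42743. All 7 overlapping models were listed as higher after P-Por-Os, and they are 7 of the 160 listed rows.

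The models kept a near-constant proportion to their histone gene. Gm44492, on the strand opposite to Hist2h2ac, was at 813 ± 158 RPKM in control and 2275 ± 64.6 RPKM after P-Por-Os (SD, n = 3 each). It averaged 2.36 times the RPKM of Hist2h2ac over the 6 libraries, and this ratio had a coefficient of variation of 1.10 percent. Over the 7 models that coefficient ran from 0.369 to 1.46 percent, where the genes' own control values had 16.4 to 34.3 percent. The 5 microRNA-type models had 1.63 to 2.36 times the RPKM of the H2A gene around them.

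For Hist2h2bb the numbers of reads could be compared, as RPKM times annotated exonic length. Gm20628, on the opposite strand, held 1.01 to 1.02 times the reads of Hist2h2bb in the 6 libraries. Gm42743 held 0.966 to 0.987 times those reads. The kits are called stranded in the protocols, and the strand setting of the counting is not given in the sources used here. The values of the antisense models and of the histone genes cannot be told apart by strand, and none of the microRNA-type models can be read as a microRNA level.

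**Figure D3:**
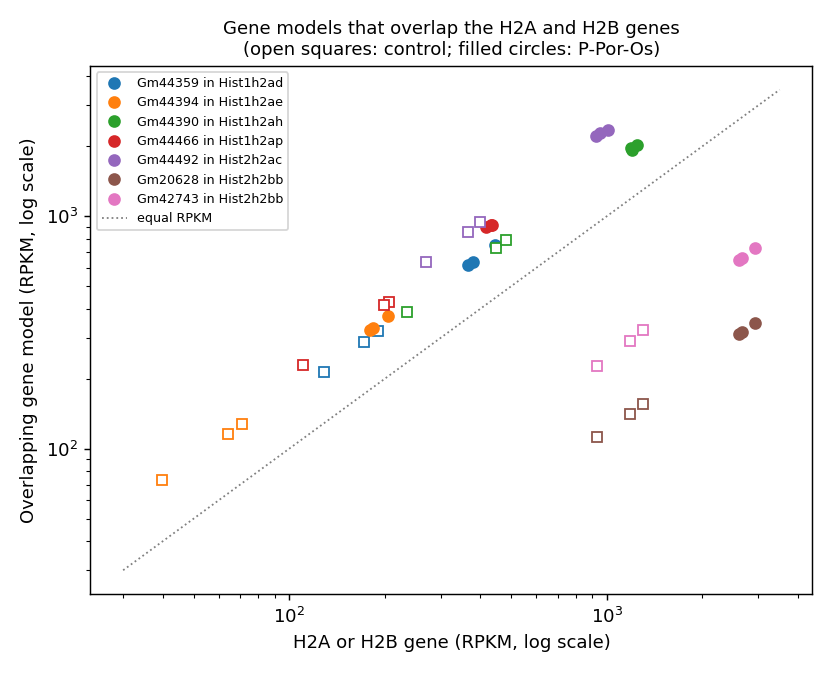
RPKM of each overlapping gene model against RPKM of the H2A or H2B gene it overlaps, on log axes, 1 colour per pair, with open squares for control and filled circles for P-Por-Os. Each pair lies along a line parallel to that of equal RPKM, above it for the 5 microRNA-type models and below it for both models at Hist2h2bb.

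Beyond these 7 genes, the same table lists 6 more H2A and H2B genes with Hist names. In all, 13 of 39 genes of these families were listed, 10 of 20 H2A and 3 of 19 H2B genes, against 1.05 percent of all genes tested. These shares are not like for like. The 13 include the 7 genes picked from this listing. The 39 are annotated genes taken by name, and whether each is replication-dependent was not checked. How many of them were tested is not known, so no enrichment is read from the shares. The lists were drawn up with earlier results of these data known. In falling order of level after P-Por-Os, 5 of the 6 others were Hist1h2ab, Hist1h2af, Hist1h2bg, Hist1h2an and Hist1h2aj, from 324 ± 22.7 RPKM to 61.5 ± 3.01 RPKM (SD, n = 3 each). The remaining gene, Hist1h2aa, is named after its values were seen, and reached 2.93 ± 0.313 RPKM (SD, n = 3). The log2 ratios of the 6 genes lay between 1.14 and 1.38 around a median of 1.22, and no test set them against the 7. Control replicate 1 was the lowest control for 5 of the 6, at a median of -0.24 from the other controls. The lowest of their log2 folds in the authors' deposited table, 1.02 for Hist1h2an, lies just inside the lowest fold listed. Genes just outside it were not analysed here. At a log2 fold of at least 1.5 only Hist1h2ae and Hist1h2ah of the 13 remained, where 0.262 percent of all genes tested were called.

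Genes that make or handle these mRNAs were not in the table. None of 11 genes of histone transcription and mRNA processing, such as Npat and Slbp, was listed. Nor was any of 6 chaperones of H2A and H2B or of 6 H2A variants with H2af names. Of 24 genes in the list for DNA replication and S phase, 1 was listed, Rrm2, a subunit of ribonucleotide reductase. That list does not hold every replication gene, and Dna2, which is outside it, was also in the table. Pcna, the replication clamp, and the MCM helicase genes were not. Absence from a table of selected genes says only that a gene was not tested, or that its fold or p-value did not meet the authors' selection for higher genes.

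The listed genes with profiles most like those of the 7 were sought among the 160 listed genes only, outside the H2A and H2B lists. All of these were selected for being higher after P-Por-Os, so low control and high P-Por-Os values are shared by selection and were not tested. Likeness was measured as the Euclidean distance between log2(RPKM) profiles, each centred on its own mean, over 3 control and 3 P-Por-Os libraries. The 5 nearest to the mean profile of the 7 genes were Hist1h3h, which encodes H3 (distance 0.0712), Gm44492, the model inside Hist2h2ac that kept a near-constant ratio to it and is no separate case (0.151), Dna2, a nuclease and helicase of DNA replication (0.201), Hist1h3a, another H3 gene (0.222), and Hist1h4j, an H4 gene (0.222). Further down the order came Csf2 (0.246), Tff3 (0.248) and Clca3b (0.266), named after their values were seen. Likeness to this profile was therefore not particular to histone and replication genes. The distances of the 7 genes themselves ran from 0.0547 for Hist1h2bl to 0.396 for Hist1h2ah, and the median over listed genes was 0.585. Dna2 was at 0.628, 0.908 and 0.992 RPKM in control and 2.17, 2.09 and 2.14 RPKM after P-Por-Os, with control replicate 1 lowest there too.

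**Figure D4:**
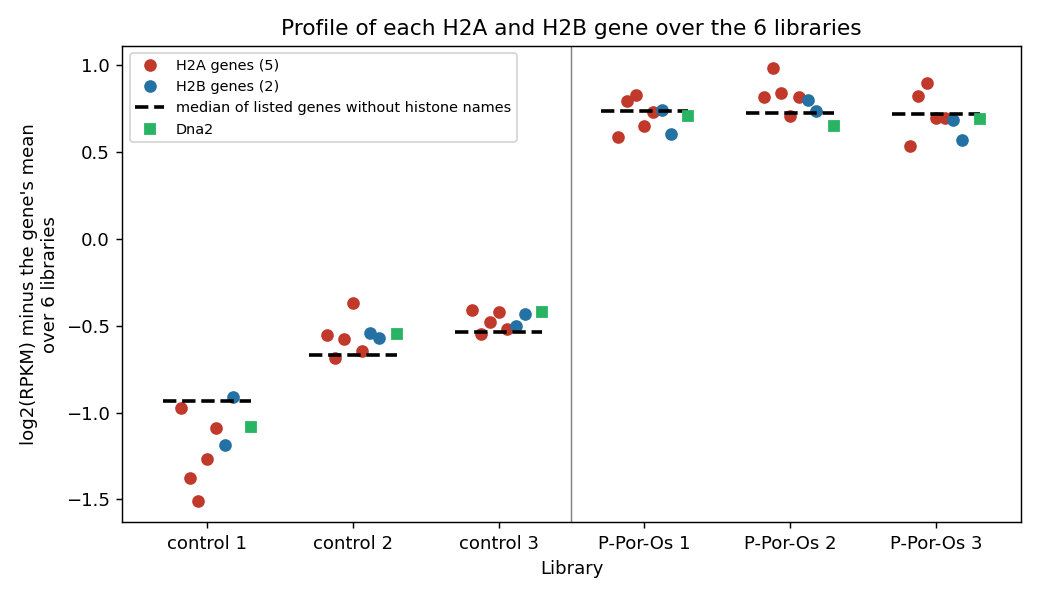
The log2(RPKM) of each gene minus its mean over the 6 libraries, with H2A genes as red points, H2B genes as blue points, Dna2 as green squares and the median of listed genes without histone names as dashed lines. In control replicate 1 the 7 genes lie between -1.51 and -0.91, with the dashed line at -0.93, and in the P-Por-Os libraries they lie between 0.53 and 0.99.

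With ultrasound none of the 7 genes was listed. The table of P-Por-Os+US against control, which shares its control libraries with the comparison above, lists 61 genes, 0.403 percent of those tested, and 0 of the 39 H2A and H2B genes. The table in which ultrasound was added to P-Por-Os, with P-Por-Os alone as its reference, lists 27 genes, 0.179 percent of those tested, and again 0 of the 39. Both tables hold only genes that were higher in the P-Por-Os+US libraries than in their reference, which is control or P-Por-Os alone. The levels of the 7 genes in the P-Por-Os+US libraries were not analysed here, and whether ultrasound altered them was not tested.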

How the data were processed

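RNA-seq of 9 libraries was read from 3 deposited tables of selected genes. The deposited values per library were taken as RPKM made by the authors, a unit the headers do not name: the deposited log2 CPM, taken to linear scale, over RPKM times GENCODE M21 exonic length had a median of 1.004 over 153 genes. Per the file headers, each row also holds the authors' log2 fold, log2 CPM, F score, p-value and adjusted p-value. The submitters' processing notes name fastp 0.23.4, featureCounts of Subread 1.5.1, edgeR 3.12.1 and GRCm38. Aligner, annotation and strand setting: not given in the sources used here. Columns named CON, OS and OSU were read as control, P-Por-Os and P-Por-Os+US, with the number as replicate.

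Ratios are log2 of the ratio of mean RPKM, without pseudocount or filter. The number of genes tested came from the ratio of p to adjusted p, as the number giving the highest share of whole ranks within 0.001 (72.5 percent of rows for P-Por-Os against control). Library totals came from whole-read steps (within 0.05) of values under 400 reads, 88.4 to 92.1 percent of which were whole. Low values are thus in whole reads, and totals of 35152000 to 37668000 reads set the precision. No test was run, since the table's selection used the same contrast. Replicate numbers are shared between groups, but deviations from group means across 160 genes correlated at 0.0011, 0.16 and -0.02 for same-numbered libraries, so the numbers were not taken as pairs. Named genes are the 7 genes, at most 6 listed genes of the other histone and S-phase lists by level after P-Por-Os, and the 5 nearest profiles outside the H2A and H2B lists. Csf2, Tff3 and Clca3b, further down the order of profiles, were named after their values were seen. The members and lists were chosen with earlier results of these data known. Python 3.11.15, pandas 2.3.3, numpy 2.4.6 and Biopython 1.88 were used. Alternatives were another average, a pseudocount of 1, the authors' scaling, other thresholds, copies counted once and each library left out.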

Additional observations from a re-analysis of the deposited data

How the results depend on the processing

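All 7 genes kept a log2 ratio of at least 1 with a pseudocount of 1, with mean log2 RPKM, with median RPKM, on the authors' scale and without each library in turn, and the median of 1.45 then lay between 1.27 (without control replicate 1) and 1.57 (without control replicate 3). A replicate block, taken as the mean log2 ratio of same-numbered libraries, gave a count of 7 and a median of 1.49. It equals the difference of mean log2 RPKM by arithmetic, so it is no separate check. An alternative chosen after seeing the data, without control replicate 1 and moved to the authors' scale, gave 6 genes and a median of 1.15. A log2 ratio of at least 1.5 left 2 of the 7 genes, and copies that share at least 50 percent of their stretches of 31 bases, counted once, left 4. The 13 listed H2A and H2B genes became 2 at a log2 fold of at least 1.5 and 5 with copies counted once, by construction of these settings, and remained 13 with a mean of at least 1 RPKM or an adjusted p under 0.05. Of 84 alternative values for single genes, 79 moved by less than 1 pooled SD, 5 by more, and 0 reversed. All 5 came from the alternative chosen after seeing the data. A value with 1 library left out shares the other libraries with the main value, which limits how far it can move. The 79 are thus no sign of stability. The 84 hold the values of mean log2 RPKM again as those of the replicate block. The genes were selected for being higher in these libraries, so the lack of a reversal is no sign of stability. For the 5 genes with read numbers, counting error was at most 3.45 percent in a library, and it is not known for Hist1h2ad and Hist1h2ae. Having 3 libraries per group limits all ratios, and sharing of reads among copies limits those of the genes other than Hist2h2bb.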
